A study of Mus musculus with 15 samples.

Results

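The 45 genes described here mark B cells, T cells and the lymphoid tissues in which those cells gather. They comprise 14 B cell genes, 18 T cell genes, 3 cytotoxic lymphocyte genes, 7 genes shared by lymphocytes or by all leukocytes, and 3 genes of macrophages of the spleen and lymph nodes. They are listed by name, 45 of the 34714 genes of the table, and were chosen by their FPKM values in these same 15 libraries. Therefore the levels of the 45 genes are given as a description, with no test of the genes as a set.

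RNA was sequenced from 15 libraries of aorta from WT mice, 5 in each of 3 groups. Sham mice were the controls. AngII mice received an infusion of angiotensin II, a vasoconstrictor peptide used to raise blood pressure, at 750 ng per kg per minute. AngII+RvE1 mice received the same infusion together with resolvin E1, a lipid mediator of the resolution of inflammation, given intraperitoneally at 2 µg per kg per day.

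B cells recognise antigen through a surface immunoglobulin whose signal passes through CD79A and CD79B, and T cells through a receptor held in a complex with the CD3 chains, with CD4 or CD8 as coreceptor. Both kinds of cell circulate through lymph nodes and spleen, which they enter from the blood and where stromal cells, follicles and specialised macrophages hold them in separate zones. The aorta is surrounded by fat through which lymphatic vessels run and in which lymph nodes lie, and the wall itself contains few lymphocytes in a healthy animal.

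Each value is treated as FPKM, a read count scaled to gene length and library depth, and library sums ran from 385846 to 514281. Read depth is unknown, so no counting interval is given. Whether each library is a different mouse is not stated in the labels, so p-values measure only the spread between these samples, which may be technical. Smooth muscle actin (Acta2), the defining transcript of the aortic wall, was between 485 and 6288 FPKM, and the fat cell gene Fabp4 was between 5458 and 16336, so transcripts of wall and fat were present in every library.

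The lymphocyte genes divided the AngII group. Libraries AngII 3, AngII 4 and AngII 5 were the 3 highest of all 15 libraries for 45 of the 45 genes, an arrangement found for 14.98% of the 12603 genes that reached 1 FPKM in at least 5 libraries. The mean of log2(FPKM + 1) over the 45 genes was 0.87, 0.74, 4.80, 3.51 and 5.28 in AngII libraries 1 to 5. It was 0.95, 1.23, 1.84, 1.13 and 0.50 in the Sham libraries and 0.70, 0.87, 0.67, 0.66 and 0.80 in the AngII+RvE1 libraries. AngII 1 and AngII 2 therefore lay inside the Sham range while the other 3 AngII libraries lay above every Sham and AngII+RvE1 library. Since the genes were chosen with these values in view, this order is a description and not a finding. In bulk RNA, fewer cells of a type and less RNA per cell cannot be told apart.

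As summed FPKM, the 45 genes came to 54.05, 50.3, 2595, 849 and 3358 in the AngII libraries, against 63.6, 88.2, 181, 75.5 and 24.8 in Sham and 43.9, 50.1, 37.4, 40.8 and 48.6 in AngII+RvE1. They made up 0.568%, 0.195% and 0.790% of the library total in AngII 3, 4 and 5, and between 0.00643% and 0.0362% elsewhere. The range of the 45-gene mean within a group was 4.54 on the log2 scale in AngII, 1.34 in Sham and 0.20 in AngII+RvE1. On this scale each of the 3 groups thus had its own degree of unevenness, widest in AngII and narrowest where RvE1 was added. Gene by gene, the median SD within a group was 2.16 in AngII, 0.57 in Sham and 0.15 in AngII+RvE1. Over all 12603 genes the corresponding medians were 0.29, 0.31 and 0.21. In AngII, 0.547% of all genes had a larger SD than the median lymphocyte gene, and in AngII+RvE1 71.2% did. The added 1 compresses low values, and 25 of the 45 genes passed the filter that all the compared genes passed. The small SDs in AngII+RvE1 are therefore not read as even levels. As ratios of FPKM, its highest library exceeded its lowest by 1.34-fold for Coro1a and up to 27.1-fold for Cd8a, among genes without a 0 value.

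**Figure D1:**
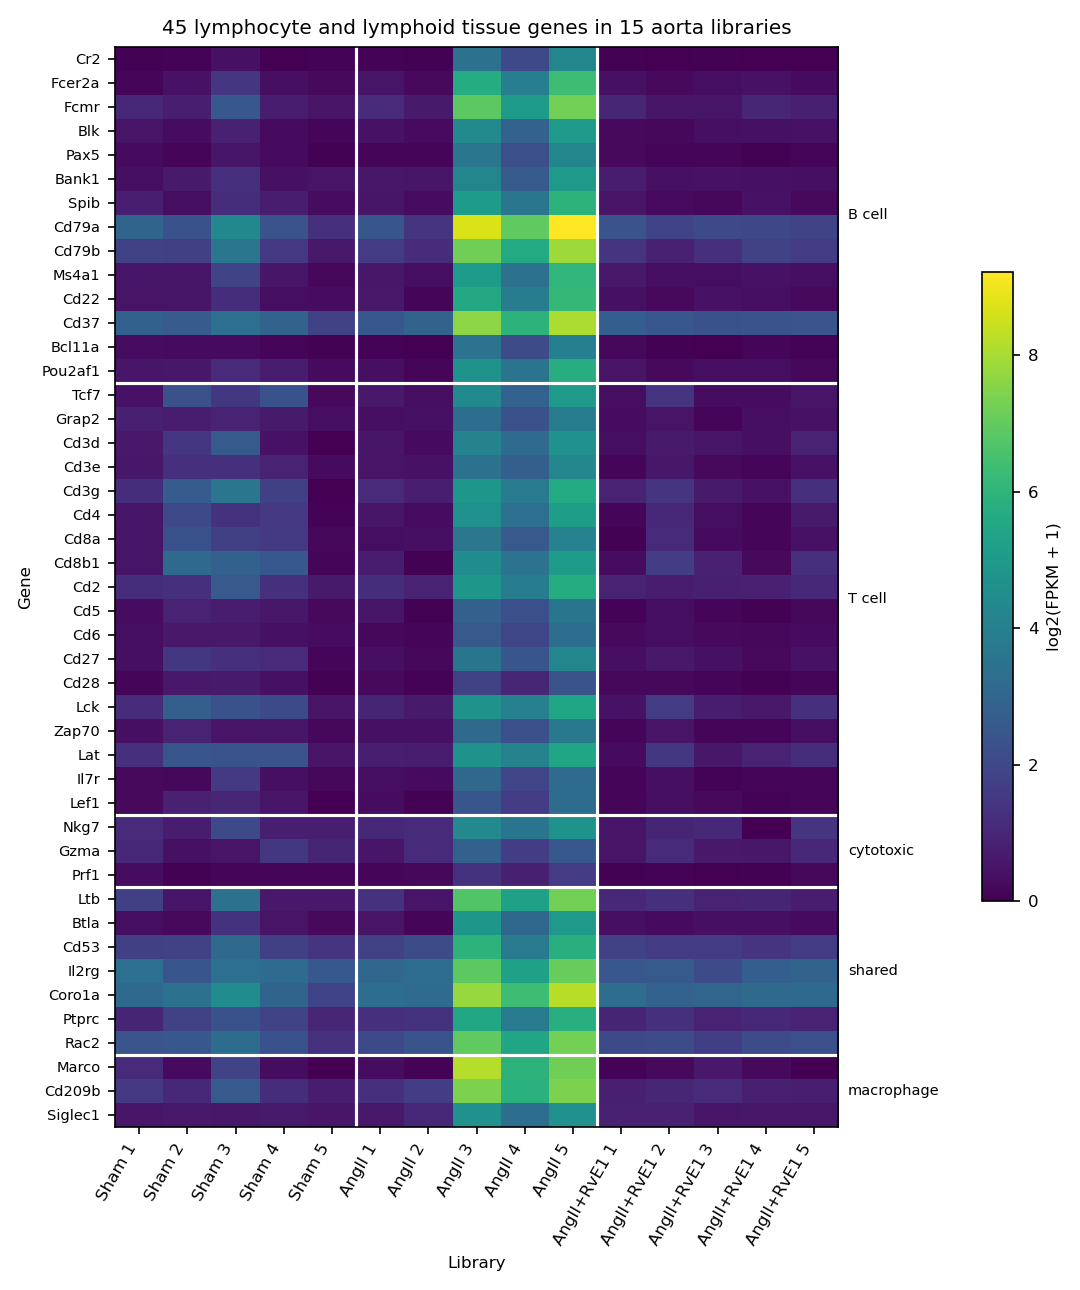
Heat map of log2(FPKM + 1) for each of the 45 genes (vertical axis, ordered by subset) in each of the 15 libraries (horizontal axis, by group). The columns AngII 3, 4 and 5 are the 3 highest for every gene, while AngII 1 and 2 resemble the Sham and AngII+RvE1 columns.

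All 14 B cell genes were high in AngII 3, 4 and 5 and low in the other 12 libraries. Cd79a, which encodes the signalling chain that carries the B cell receptor's message into the cell, lies on chromosome 7 from 24897497 to 24901858 (GRCm38.p6). Its FPKM was 6.82, 3.96, 18.7, 4.11 and 1.36 in Sham, 4.55, 1.70, 409, 125 and 591 in AngII and 4.06, 2.59, 3.07, 3.01 and 2.73 in AngII+RvE1. AngII 3, 4 and 5 were separated from all other libraries, and AngII 1 and 2 lay among the Sham values. Its partner chain Cd79b was 2.41, 2.35, 11.2, 1.85 and 0.548 FPKM in Sham, 2.000, 1.27, 148, 48.2 and 233 in AngII and 1.65, 0.810, 1.42, 2.41 and 2.01 in AngII+RvE1. The same 3 libraries stood out, and the highest of the others was again Sham 3. Cd37, a tetraspanin of mature B cells, was 6.32, 5.23, 9.36, 6.56 and 2.51 FPKM in Sham, 4.72, 6.60, 195, 61.4 and 268 in AngII and 5.69, 4.67, 4.04, 4.22 and 4.33 in AngII+RvE1. Cd37 had the smallest excess of the 14 B cell genes, its mean in AngII 3 to 5 being 30.9 times that in AngII 1 and 2.

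Receptors of mature follicular B cells behaved alike. Fcmr, the receptor for the Fc part of IgM, was 1.03, 0.712, 4.68, 0.677 and 0.413 FPKM in Sham, 1.12, 0.574, 118, 31.7 and 151 in AngII and 0.988, 0.442, 0.446, 0.982 and 0.752 in AngII+RvE1. Fcer2a, the low affinity IgE receptor CD23, was 0.115, 0.369, 1.78, 0.288 and 0.164 in Sham, 0.446, 0.174, 51.2, 14.4 and 80.2 in AngII and 0.331, 0.168, 0.265, 0.359 and 0.211 in AngII+RvE1. Cd22, an inhibitory coreceptor of the B cell receptor, was 0.401, 0.428, 1.29, 0.279 and 0.240 in Sham, 0.529, 0.0980, 45.6, 13.7 and 68.5 in AngII and 0.347, 0.187, 0.376, 0.313 and 0.187 in AngII+RvE1. For all 3 receptors the groups AngII and Sham overlapped, because AngII 1 and 2 sat within or below the Sham values. Ms4a1, which encodes CD20, was 32.7, 9.74 and 65.8 in AngII 3, 4 and 5 and at most 2.71 elsewhere. Cr2, complement receptor 2 of follicular and marginal zone B cells, was 10.1, 3.06 and 17.7 and at most 0.339.

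The transcription factors and signalling proteins of the lineage followed the same order of libraries. Pax5, the factor that commits cells to the B lineage, was 11.3, 3.70 and 17.7 FPKM in AngII 3, 4 and 5 and at most 0.486 elsewhere. Spib, an ETS factor of B cells and plasmacytoid dendritic cells, was 33.4, 11.4 and 60.6 and at most 1.32. Pou2af1, the coactivator of octamer-binding factors, was 25.4, 10.5 and 51.7 and at most 1.18. For all 3 factors AngII 4, the lowest of the high libraries, was above each of the 12 others, and Sham 3 was the highest of those 12. Bcl11a, a zinc finger repressor needed for B cell development, was 10.3, 3.30 and 14.7 and at most 0.233. Blk, a Src family kinase of B cells, was 19.97, 6.47 and 30.5 and at most 0.796, and the adaptor Bank1 was 17.7, 5.14 and 30.2 and at most 1.37. All 14 B cell genes were highest in AngII 5, then AngII 3, then AngII 4, and 4 of the 14 (Cd79a, Cd79b, Cd37 and Fcmr) passed the filter for the fit across genes.

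Promoter windows are shown for Cd79a and, below, for genes of the T cell receptor complex and Ltb, because these windows hold words read by lymphocyte transcription factors. The part of these words in the levels of the genes was not tested. Each window runs from 250 bases before to 50 after the first listed RefSeq start (GRCm38.p6), 5′ to 3′ on the gene's strand, and capitals mark a motif match on either strand. The Cd79a window is chr7:24897247-24897546 on the plus strand, and its capitals mark an E-box (CAGGTG), the site of E proteins such as those encoded by Tcf3 and Tcf12, 154 bases before the start.
Cd79a: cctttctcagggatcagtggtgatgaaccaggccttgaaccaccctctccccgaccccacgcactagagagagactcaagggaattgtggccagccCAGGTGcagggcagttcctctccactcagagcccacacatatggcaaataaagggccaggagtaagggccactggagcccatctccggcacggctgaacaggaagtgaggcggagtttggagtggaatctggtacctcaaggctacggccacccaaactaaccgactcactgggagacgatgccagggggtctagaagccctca

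Of the 45 genes, 35 had a promoter entry, and counts are given for the window at the first listed start of each gene. The E-box word CAGGTG was in 15 of the 35 windows (42.9%), against 20.03% of the first windows of 27025 genes with an entry. TGTGGT, read by RUNX factors, was in 10 of 35 (28.6%), against 16.9%. GAGGAAGT, a PU.1 site, was in 4 of 35 (11.4%, against 3.28%), and an EBF motif, a palindrome with an open centre, was in those of Cd22 and Il2rg (5.71%, against 0.914%). The octamer ATGCAAAT was in 0 of 35, against 1.75%, and the GATA word AGATAA was in that of Cd3g alone (2.86%, against 11.4%). Counting a gene when any of its listed starts had the word gave 18 genes for CAGGTG (51.4%, against 22.6% of all genes), 11 for TGTGGT (31.4%, against 18.9%) and 3 for AGATAA (8.57%, against 12.7%). Both strands were searched, no motif contains another, and a match describes letters only.

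The T cell genes were highest in the same 3 libraries, over a base that was itself uneven. Cd3g, a chain of the T cell receptor complex, lies on chromosome 9 from 44969572 to 44980431, next to Cd3d, which is transcribed in the opposite direction. Cd3g was 1.30, 5.34, 11.4, 2.39 and 0 FPKM in Sham, 1.12, 0.708, 28.4, 13.3 and 48.8 in AngII and 0.875, 1.66, 0.589, 0.377 and 1.37 in AngII+RvE1. Sham 3 came within 1.17-fold of AngII 4, the closest approach of any library outside the high 3 for any of the 45 genes. The neighbouring chain Cd3d was 0.554, 1.76, 5.13, 0.372 and 0 in Sham, 0.461, 0.191, 16.2, 8.22 and 24.5 in AngII and 0.262, 0.572, 0.420, 0.295 and 0.862 in AngII+RvE1. Cd3e was 10.2, 5.84 and 18.1 in AngII 3, 4 and 5 and at most 1.39 elsewhere. The CD3 genes thus ranked AngII 5, 3 and 4, as the B cell genes did.

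The windows of Cd3g (chr9:44980382-44980681, minus strand) and Cd3d (chr9:44981536-44981835, plus strand) are shown because these neighbours, transcribed away from each other, both hold the E-box word. In Cd3g the capitals mark E-boxes 148 and 35 bases before the start, with AGATAA 104 bases before it. In Cd3d they mark an E-box 112 bases before the start and CTTTGAT, the word of TCF and LEF factors, 55 bases before it; Cd3d was the 1 of 35 genes with CTTTGAT there (2.86%, against 3.72% of all genes).
Cd3g: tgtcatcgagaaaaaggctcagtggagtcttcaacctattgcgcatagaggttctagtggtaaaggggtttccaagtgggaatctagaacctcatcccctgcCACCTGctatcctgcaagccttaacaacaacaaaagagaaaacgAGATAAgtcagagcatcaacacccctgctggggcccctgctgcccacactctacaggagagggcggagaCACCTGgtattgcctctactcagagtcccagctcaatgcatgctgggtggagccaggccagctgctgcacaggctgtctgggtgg
Cd3d: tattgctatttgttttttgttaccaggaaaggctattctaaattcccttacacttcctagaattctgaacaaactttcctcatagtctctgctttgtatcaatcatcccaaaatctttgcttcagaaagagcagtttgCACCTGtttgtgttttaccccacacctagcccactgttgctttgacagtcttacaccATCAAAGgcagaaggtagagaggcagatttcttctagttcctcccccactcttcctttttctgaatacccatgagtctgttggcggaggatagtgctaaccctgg

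The coreceptors had an uneven base as well, led by Sham 2. Cd8b1, the beta chain of CD8, was 0.439, 7.81, 6.24, 4.73 and 0.0940 FPKM in Sham, 0.668, 0.0488, 21.1, 10.5 and 32.1 in AngII and 0.221, 2.21, 0.819, 0.187 and 1.45 in AngII+RvE1. Cd8a was 0.448, 3.97, 2.35, 1.93 and 0.149 in Sham, 0.269, 0.307, 11.5, 5.002 and 15.9 in AngII and 0.0427, 1.16, 0.195, 0.0997 and 0.376 in AngII+RvE1. Cd4, the coreceptor of helper T cells, was 0.481, 3.13, 1.57, 1.87 and 0.0557 in Sham, 0.468, 0.236, 23.8, 9.42 and 34.8 in AngII and 0.0916, 1.05, 0.279, 0.0876 and 0.573 in AngII+RvE1. For these 3 genes Sham 2, Sham 3 and Sham 4 were all above Sham 1 and Sham 5, and AngII+RvE1 2 was the highest of its group. Among the 12 libraries outside AngII 3 to 5, Sham 2 was the highest for all 3 coreceptor genes.

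Signalling proteins below the receptor followed. Lck, the kinase that phosphorylates the CD3 chains, was 1.27, 5.93, 4.04, 3.23 and 0.415 FPKM in Sham, 0.941, 0.592, 25.6, 15.2 and 41.8 in AngII and 0.378, 2.04, 0.633, 0.561 and 1.36 in AngII+RvE1. Lat, the membrane scaffold of the receptor signal, was 1.43, 4.50, 4.25, 4.12 and 0.394 in Sham, 0.694, 0.631, 25.7, 16.3 and 42.2 in AngII and 0.215, 1.79, 0.501, 0.892 and 1.31 in AngII+RvE1. Cd2, an adhesion molecule of lymphocytes, was 1.33, 1.36, 4.99, 1.41 and 0.572 in Sham, 1.29, 0.898, 28.5, 13.6 and 51.5 in AngII and 0.832, 0.650, 0.774, 0.784 and 1.10 in AngII+RvE1. Lck and Lat showed the raised Sham 2, 3 and 4 and AngII+RvE1 2 of the coreceptors, whereas Cd2 was high in Sham 3 alone among the Sham libraries. The kinase Zap70, recruited to the phosphorylated chains, was 8.18, 3.73 and 12.3 in AngII 3, 4 and 5 and at most 0.827 elsewhere. The adaptor Grap2 was 9.01, 3.84 and 14.1 and at most 0.859.

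Tcf7, which encodes the TCF1 factor of early and naive T cells, was 0.373, 3.83, 1.83, 4.03 and 0.174 FPKM in Sham, 0.536, 0.265, 19.8, 6.37 and 30.6 in AngII and 0.258, 1.65, 0.232, 0.224 and 0.434 in AngII+RvE1. Sham 4 and Sham 2 led the Sham group for Tcf7, followed by Sham 3. Il7r, the interleukin 7 receptor that keeps naive T cells alive, was 0.165, 0.134, 1.95, 0.302 and 0.159 in Sham, 0.272, 0.199, 7.60, 2.77 and 8.39 in AngII and 0.105, 0.310, 0.0585, 0.0846 and 0.119 in AngII+RvE1. Among T cell genes Il7r departed from the coreceptors, since Sham 3 was high and Sham 2 was the lowest of its group. Cd27, a costimulatory TNF receptor, was 11.1, 4.48 and 17.6 in AngII 3, 4 and 5 and at most 1.79 elsewhere, and its relative in function Cd28 was 2.54, 0.988 and 4.17 and at most 0.570. The surface regulators Cd5 and Cd6 were 6.03, 3.73 and 11.1 and 4.87, 2.83 and 9.04, and at most 0.877 and 0.565 elsewhere. Lef1, a factor related to Tcf7, was 4.47, 2.10 and 8.58 and at most 0.999. All 18 T cell genes were highest in AngII 5, and 11 of the 18 passed the filter.

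The 3 cytotoxic genes had the lowest mean of the subsets in AngII 3 to 5 and the smallest contrast. Nkg7, a granule membrane protein of NK and cytotoxic T cells, was 1.17, 0.633, 3.09, 0.723 and 0.692 FPKM in Sham, 1.11, 1.22, 19.1, 10.97 and 25.3 in AngII and 0.439, 0.952, 1.04, 0 and 1.68 in AngII+RvE1. Gzma, the granzyme A protease, was 1.05, 0.337, 0.411, 1.81 and 0.914 in Sham, 0.465, 1.22, 6.03, 2.20 and 4.82 in AngII and 0.416, 1.15, 0.535, 0.507 and 1.03 in AngII+RvE1. Prf1, the pore-forming perforin, was 1.55, 0.749 and 2.07 in AngII 3, 4 and 5 and at most 0.227 elsewhere. Gzma had the smallest excess of the 45 genes, 5.17 times from the mean of AngII 1 and 2 to that of AngII 3 to 5, and was higher in AngII 3 than in AngII 5.

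Genes shared by lymphocytes or by all leukocytes had a value above 0 in every library. Ltb, the lymphotoxin beta that B and T cells use to organise lymphoid stroma, was 2.34, 0.444, 9.78, 0.564 and 0.557 FPKM in Sham, 1.48, 0.435, 104, 37.6 and 153 in AngII and 1.11, 1.34, 0.888, 0.949 and 0.640 in AngII+RvE1. Coro1a, an actin regulator of leukocytes, was 7.79, 9.91, 21.3, 6.83 and 2.62 in Sham, 9.10, 8.40, 221, 80.5 and 300.4 in AngII and 8.71, 6.53, 7.10, 8.14 and 7.88 in AngII+RvE1. Ptprc, the leukocyte common antigen CD45, was 0.946, 2.40, 3.99, 2.74 and 1.001 in Sham, 1.41, 1.56, 45.1, 12.8 and 54.6 in AngII and 0.945, 1.44, 0.837, 1.11 and 0.878 in AngII+RvE1. Sham 3 was the highest Sham library for all 7 shared genes. Rac2, a GTPase of blood cells, was 122, 42.2 and 157 in AngII 3, 4 and 5 and between 1.48 and 8.58 elsewhere. Il2rg, the common gamma chain of interleukin receptors, was 9.22, 4.56, 9.38, 8.34 and 4.83 in Sham, 7.28, 8.81, 117, 37.5 and 132 in AngII and 4.72, 5.10, 3.38, 5.73 and 6.55 in AngII+RvE1. AngII 1 and 2 lay above every AngII+RvE1 library for Il2rg and also for Cd53, a tetraspanin of leukocytes, which was 2.54, 3.40, 61.2, 13.4 and 53.2 in AngII and 2.40, 2.08, 2.05, 1.63 and 2.03 in AngII+RvE1. Btla, an inhibitory receptor of B and T cells, was 28.1, 7.55 and 29.5 in AngII 3, 4 and 5 and at most 1.58 elsewhere.

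The Ltb window (chr17:35194257-35194556, plus strand) is shown because it was the 1 first-start window of the 35 with the NF-kB motif (2.86%, against 0.144% of all genes). The motif is the first run of capitals, 87 bases before the start and read on the opposite strand, followed by an E-box 66 bases before the start.
Ltb: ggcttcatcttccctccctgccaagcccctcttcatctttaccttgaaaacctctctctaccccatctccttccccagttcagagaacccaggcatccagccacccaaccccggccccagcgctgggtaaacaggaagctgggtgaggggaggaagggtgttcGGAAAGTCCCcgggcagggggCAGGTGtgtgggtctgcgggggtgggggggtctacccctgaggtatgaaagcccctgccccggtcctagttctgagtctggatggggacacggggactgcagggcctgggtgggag

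The mean of the 3 lymphoid tissue macrophage genes had a range of 6.01 on the log2 scale within AngII, the widest of the 5 subsets. Marco, a scavenger receptor of marginal zone and medullary macrophages, was 1.15, 0.200, 2.67, 0.235 and 0 FPKM in Sham, 0.225, 0.0572, 287, 61.5 and 148 in AngII and 0.0748, 0.189, 0.543, 0.165 and 0.0250 in AngII+RvE1. Cd209b, a lectin of marginal zone macrophages, was 1.92, 1.11, 5.01, 1.32 and 0.676 in Sham, 1.44, 2.22, 166, 57.4 and 168 in AngII and 0.756, 0.972, 1.16, 0.752 and 0.729 in AngII+RvE1. Siglec1, the sialoadhesin of metallophilic and subcapsular macrophages, was 0.474, 0.547, 0.527, 0.592 and 0.458 in Sham, 0.532, 1.08, 24.6, 9.03 and 24.5 in AngII and 0.808, 0.780, 0.465, 0.520 and 0.508 in AngII+RvE1. The mean of AngII 3 to 5 was 1172 times that of AngII 1 and 2 for Marco, 71.3 times for Cd209b and 24.0 times for Siglec1. Marco and Siglec1 were highest in AngII 3, unlike the B and T cell genes, although for Siglec1 AngII 3 and AngII 5 differed by little.

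**Figure D2:**
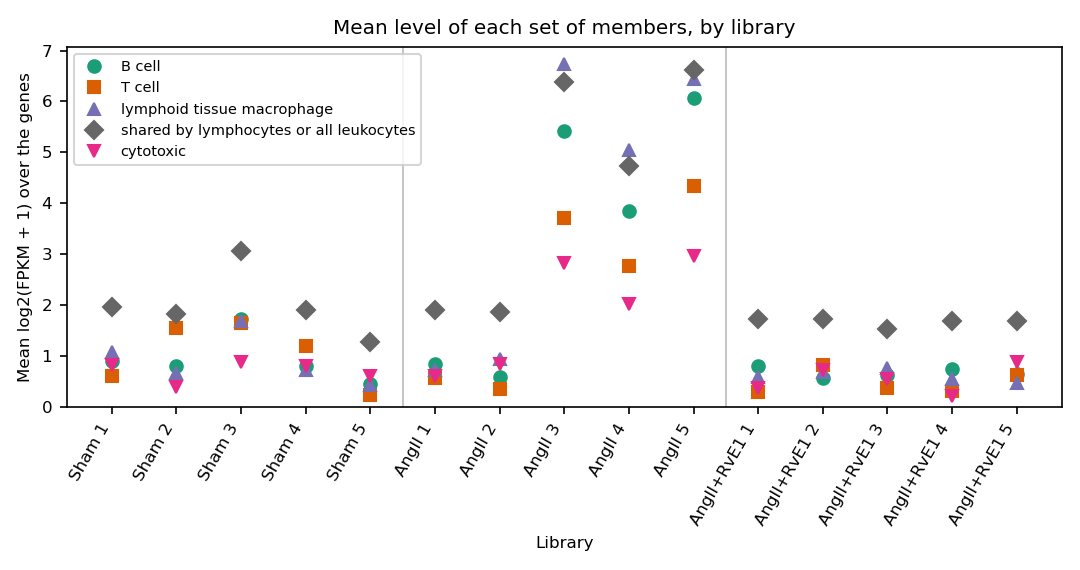
Mean of log2(FPKM + 1) over the genes of each subset (vertical axis) in each library (horizontal axis), with a marker per subset. All 5 subsets are highest in AngII 3, 4 and 5, and the T cell mean also stands above the B cell mean in Sham 2 and Sham 4.

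The 3 high libraries did not carry the subsets in 1 proportion. AngII 4 had a median of 0.205 of the AngII 5 level for B cell genes (0.148 for Ms4a1 to 0.229 for Cd37) and 0.309 for T cell genes (0.208 for Tcf7 to 0.385 for Lat). The ranges of the 2 subsets overlapped only at Tcf7. The median was 0.256 for shared, 0.369 for macrophage and 0.434 for cytotoxic genes. AngII 3 had a median of 0.637 of the AngII 5 level for B cell genes and 0.621 for T cell genes, nearly the same fraction for both subsets. It had 0.826 for shared genes and 1.003 for macrophage genes, with Marco at 1.94. As summed FPKM, B cell genes exceeded T cell genes 4.27, 2.71 and 3.95 times in AngII 3, 4 and 5. The excess of AngII 3 to 5 over AngII 1 and 2 had a median of 110 among B cell genes and 36.4 among T cell genes.

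**Figure D3:**
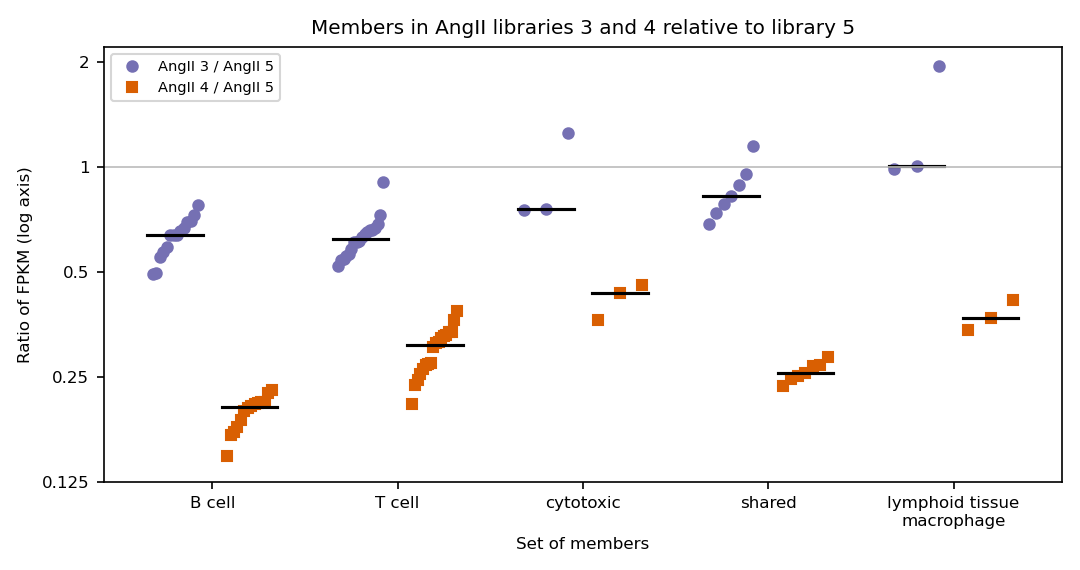
FPKM in AngII 3 and in AngII 4 as a ratio to AngII 5 (log axis) for each of the 45 genes, by subset, with bars at the median. The median AngII 4 ratio is higher for T cell genes (0.309) than for B cell genes (0.205), and Marco is the gene with the highest AngII 3 ratio, 1.94.

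Outside the 3 high libraries most of the genes fell into a pair of patterns. Sham 3 was the highest of the 12 other libraries for 30 of the 45 genes, among them 13 of 14 B cell genes, 7 of 7 shared genes and 7 of 18 T cell genes. Sham 2 was the highest for 10 genes, all of them T cell genes. The rest were highest in Sham 4 (Tcf7 and Gzma), Sham 1 (Bcl11a and Prf1) or AngII 2 (Siglec1). The Sham 2 level was a median of 0.220 of the Sham 3 level for B cell genes and 1.05 for T cell genes. Against Sham 1, Sham 2 was 0.947 times as high for B cell genes and 3.99 times as high for T cell genes at the median. Sham 3 therefore carried B and T cell genes together, and Sham 2 carried T cell genes with a B cell level like that of Sham 1. The proportion in Sham 3 was unlike that in AngII 3, 4 and 5. As summed FPKM, its B cell genes were 1.10 times its T cell genes, against 4.27, 2.71 and 3.95 times there.

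AngII+RvE1 2 had the T cell pattern in a weaker form. It was the highest of its group for 16 of 18 T cell genes and 0 of 14 B cell genes, with median ratios to the mean of the other 4 libraries of 2.54 and 0.678. As summed FPKM, B cell genes were 0.342 times the T cell genes in Sham 2, 0.562 times in Sham 4 and 0.638 times in AngII+RvE1 2. In the 9 other libraries outside AngII 3 to 5 the ratio was between 1.07 and 3.48. Rag1, a recombinase gene of developing lymphocytes, was picked after its values were seen and was 0, 2.49, 0, 1.24 and 0 FPKM in Sham, 0, 0.0127, 0.0427, 0 and 0.0106 in AngII and 0, 0.963, 0.0411, 0 and 0.263 in AngII+RvE1. Dntt, the terminal transferase of the same stage, was 0, 3.83, 0.0826, 1.89 and 0.0411 in Sham, 0, 0.0385, 0.204, 0.0699 and 0.409 in AngII and 0, 1.36, 0.128, 0 and 0.397 in AngII+RvE1. The 3 libraries with the lowest B to T ratios were the 3 with the highest Rag1 and Dntt. Rag2, the partner of Rag1, was 0.467, 0.236 and 0.239 in them and at most 0.0495 elsewhere. Ptcra, a chain of the pre-T cell receptor, was at most 0.190 FPKM in any library. The 4 listed genes of the thymic epithelium differed among themselves. Foxn1 and Psmb11 were at most 0.0349 and 0.0164 FPKM in any library, whereas Ccl25, a chemokine that attracts thymocytes and also gut T cells, was between 0.618 and 2.63. Aire, the regulator of self-antigen expression in the thymus, was 0.599, 0.246 and 1.37 in AngII 3, 4 and 5 and at most 0.0821 elsewhere. The part of thymus RNA in the T cell values was not tested.

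**Figure D4:**
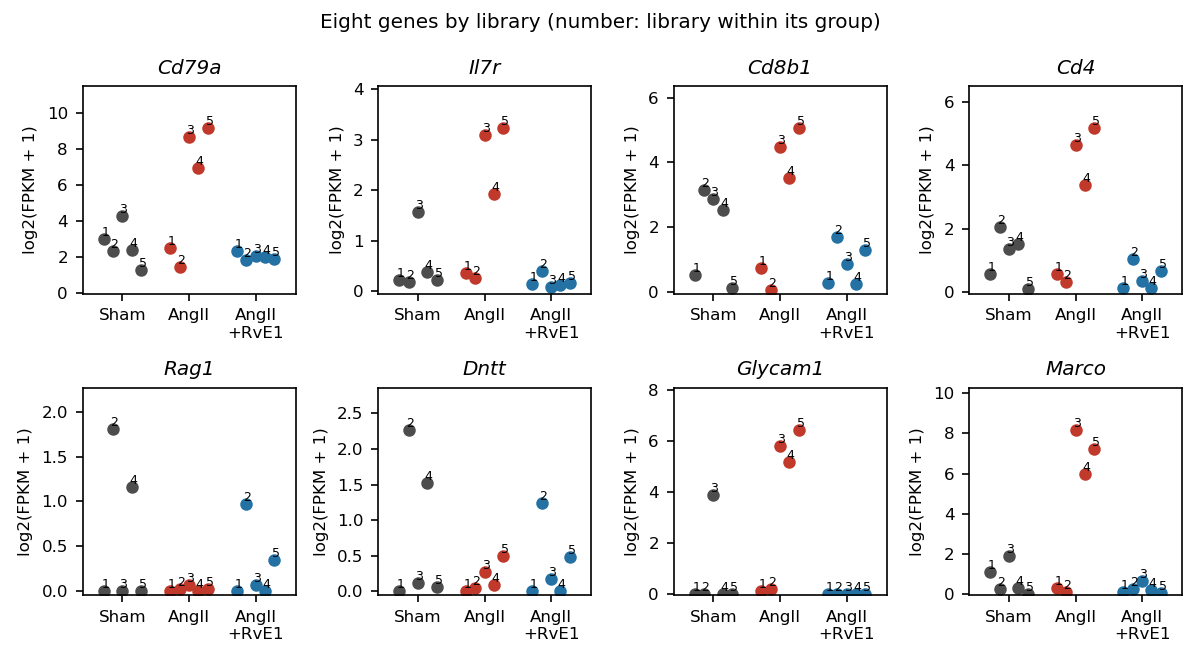
Level of 8 genes as log2(FPKM + 1) (vertical axis) in each of the 15 libraries, with 1 panel per gene, libraries grouped by treatment and each point numbered by its library. Cd79a and Marco are high in AngII 3, 4 and 5, and Cd8b1 is also raised in Sham 2, 3 and 4.

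Glycam1, an adhesion ligand of the high endothelial venules through which lymphocytes enter lymph nodes, was 0, 0, 13.6, 0 and 0 FPKM in Sham, 0.0883, 0.135, 55.4, 35.00 and 85.5 in AngII and 0, 0, 0, 0 and 0 in AngII+RvE1. It was above 1 FPKM in AngII 3, 4 and 5 and in Sham 3, the libraries in which B and T cell genes were high together. Chst4, a sulfotransferase of the same venules, had another order, at 2.08, 1.98, 0.250, 1.70 and 0.0359 in Sham, 0.107, 0, 2.32, 0.588 and 1.96 in AngII and 0, 0.329, 0, 0.0512 and 0 in AngII+RvE1. It was higher in Sham 1, 2 and 4 than in Sham 3 and AngII 4. Ccl21a, a chemokine of lymph node stroma and lymphatic vessels, was 26.5, 1.30, 41.02, 17.1 and 3.45 in Sham, 9.86, 10.6, 165, 87.8 and 254 in AngII and 5.77, 8.80, 1.63, 13.5 and 4.83 in AngII+RvE1. Cxcl13, the chemokine that draws B cells into follicles, was 86.5, 21.2 and 137 in AngII 3, 4 and 5 and at most 4.69 elsewhere. Of the 12 listed genes of lymph node stroma and its organisers, 9 had AngII 3, 4 and 5 as the 3 highest libraries. The part of lymph node tissue in the values of the 45 genes was not tested.

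Listed genes outside the 45 gave the same order to different degrees. AngII 3, 4 and 5 were the 3 highest libraries for 15 of 15 other B cell genes, 20 of 21 other T cell genes and 11 of 12 other NK and cytotoxic genes. Tnfrsf13c, the receptor for the B cell survival factor BAFF, was 23.7, 7.83 and 53.9 FPKM in those libraries and at most 1.75 elsewhere, and Ccr7, a chemokine receptor that guides naive T cells into lymph nodes, was 17.3, 7.40 and 28.4 and at most 2.37. For dendritic cell genes the count was 9 of 10, with Siglech of plasmacytoid cells at 21.1, 8.25 and 24.3 and at most 1.54. It was 5 of 6 for spleen genes, 4 of 7 for plasma cell genes, 5 of 7 for germinal centre genes and 1 of 8 for thymus genes. The mean log2(FPKM + 1) of the 6 spleen genes was 3.37, 1.62 and 2.50 in AngII 3, 4 and 5 and at most 0.47 elsewhere. Tlx1, a transcription factor in that list, was nonetheless 0 FPKM in AngII 3, 4 and 5. The part of spleen tissue in these values was not tested. The plasma cell gene Jchain, the joining chain of secreted antibody, was 61.96, 27.9 and 283 FPKM in AngII 3, 4 and 5. Mef2b, a transcription factor of germinal centre B cells, was 1.80, 2.89 and 7.14. Jchain and Mef2b were each highest in AngII 5. The 3 germinal centre genes that passed the filter were Bcl6, Fas and S1pr2. In AngII against Sham, over whole groups, their log2 differences were -0.40, -0.39 and 0.34. Of these, 0 of 3 were called (limma, adjusted p under 0.05), against 3.17% of all genes. These group differences are not comparable with the values of Mef2b in single libraries.

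AngII 3 was set apart from AngII 5 by macrophage genes. Of the 8 general macrophage genes, 6 had AngII 3, 4 and 5 as the 3 highest libraries and 7 were highest in AngII 3. Cd68, a lysosomal protein of macrophages, was 8.13, 16.4, 169, 24.6 and 42.4 FPKM in AngII. Cd5l, secreted by tissue macrophages, was 36.4, 1.39 and 3.39 and Spic, the factor of splenic red pulp macrophages, was 25.8, 3.26 and 8.80 in AngII 3, 4 and 5. S100a8, a calcium-binding protein of neutrophils, was 128, 2.12 and 12.5. Of the 3 lymphoid tissue macrophage genes, Marco was likewise higher in AngII 3 than in AngII 5, and Siglec1 and Cd209b were nearly equal in both.

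Tissue markers followed the lymphocyte genes only in part. The mean log2(FPKM + 1) of 8 contractile smooth muscle genes was 8.52, 7.37, 6.02, 7.31 and 8.20 in Sham, 6.11, 6.90, 5.81, 6.43 and 5.41 in AngII and 8.14, 7.59, 7.77, 8.28 and 8.31 in AngII+RvE1. Sham 3, with the highest lymphocyte mean of its group, had the lowest smooth muscle mean of its group, and AngII 5, the highest of all for lymphocytes, had the lowest of all. AngII 1, low for lymphocyte genes, was nonetheless below AngII 4 for smooth muscle. The 5 brown fat genes had means of 5.35, 6.78, 7.34, 6.80 and 6.69 in Sham, 7.15, 7.18, 4.004, 5.95 and 6.02 in AngII and 5.81, 6.76, 5.80, 5.43 and 5.60 in AngII+RvE1. Within AngII they were lower in the 3 lymphocyte-high libraries, whereas Sham 3 had the highest brown fat mean of all 15. The 6 heart muscle genes had means of 1.02, 8.50, 1.13, 6.32 and 1.47 in AngII, and the values did not follow the lymphocyte genes, since AngII 4 was high and AngII 3 and 5 low. The 6 lymphatic endothelial genes had means of 2.07, 1.24, 1.32, 2.12 and 1.62 in Sham, 1.90, 2.04, 3.19, 2.43 and 2.75 in AngII and 1.73, 1.56, 1.12, 1.81 and 1.25 in AngII+RvE1. AngII 3, 4 and 5 were the 3 highest of all libraries for these, and Sham 3 was the second lowest of its group. The part of tissue composition in the lymphocyte values was not tested.

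Group comparisons were fitted with limma on log2(FPKM + 1) over all 12603 genes, of which 25 were among the 45. The other 20 stayed below the filter of 1 FPKM in 5 libraries. A gene raised in AngII 3 to 5 needed only 2 more libraries to pass, so no count over the 25 is read as support. For AngII against Sham the median log2 difference of the 25 genes was 1.92 (all genes 0.11), and 0 of 25 were called at an adjusted p under 0.05, against 3.17% of all genes (2.36% higher and 0.809% lower). At an unadjusted p under 0.05, 16 of 25 were higher, against 19.7% of all genes. With array weights, of which AngII 4 had the largest (6.35), 17 were called higher, against 16.7% of all genes in the same fit. Leaving out AngII 1 or AngII 2 gave 16, against 9.16% and 10.9% of all genes. The largest difference was that of Marco, 3.64, and its group values overlapped because AngII 1 and 2 lay inside the Sham range. Libraries of the groups did not overlap for 0 of the 25 genes, against 3.7% of all genes.

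For AngII+RvE1 against AngII the median log2 difference was -2.35 (all genes -0.11), and 6 of 25 genes were called lower and 0 higher, against 4.31% and 4.21% of all genes (8.52% in either direction). The 6 were Il2rg, Cd209b, Nkg7, Cd53, Ptprc and Cd37, with log2 differences of -2.53, -3.83, -2.18, -2.31, -2.52 and -2.94. At an unadjusted p under 0.05, 25 of 25 were lower, against 19.1% of all genes. Leaving out AngII 3, 4 or 5 gave 0 calls of the 25, against 1.2%, 1.42% and 0.428% of all genes called lower in those fits. Leaving out AngII 1 or AngII 2 gave 24, against 9.31% and 10.4%. Leaving out AngII+RvE1 1, 3, 4 or 5 also gave 0, against 0.651%, 1.36%, 0.524% and 0.421%. The libraries of both groups were separate for 3 of 25 genes (Cd53, Il2rg and Cd209b), against 11.1% of all genes. The 2 comparisons share the 5 AngII libraries, and the rule behind the list used that contrast, so nothing is read from these counts. For AngII+RvE1 against Sham the median was -0.48 (all genes 0.01), with 0 of 25 called (limma; 0 at an unadjusted p under 0.05, against 6.69% of all genes), against 0.0238% of all genes (0.0159% higher and 0.00793% lower), and no gene had separate groups, against 1.09%.

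Without AngII 3, 4 and 5 the median difference turned below 0 in AngII against Sham and lay near 0 in AngII+RvE1 against AngII. Those 3 libraries were picked as the highest for all 45 genes, so the loss of the AngII excess was fixed in advance. Only AngII 1 and AngII 2 then remain in the AngII group, and the values are a description. For AngII against Sham the median over all 45 genes was 1.89 with all libraries and -0.24 without these 3, with 38 of 45 genes below 0. For AngII+RvE1 against AngII it was -2.25 and -0.027, with 28 of 45 genes below 0. For AngII+RvE1 against Sham it was -0.34 in both cases, since no AngII library enters. The T cell genes had the most negative remainder in AngII against Sham, a median of -0.48, with Sham 2, 3 and 4 on the control side. AngII 1 and AngII 2 lay within the range of the 10 Sham and AngII+RvE1 libraries for 37 of the 45 genes.

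**Figure D5:**
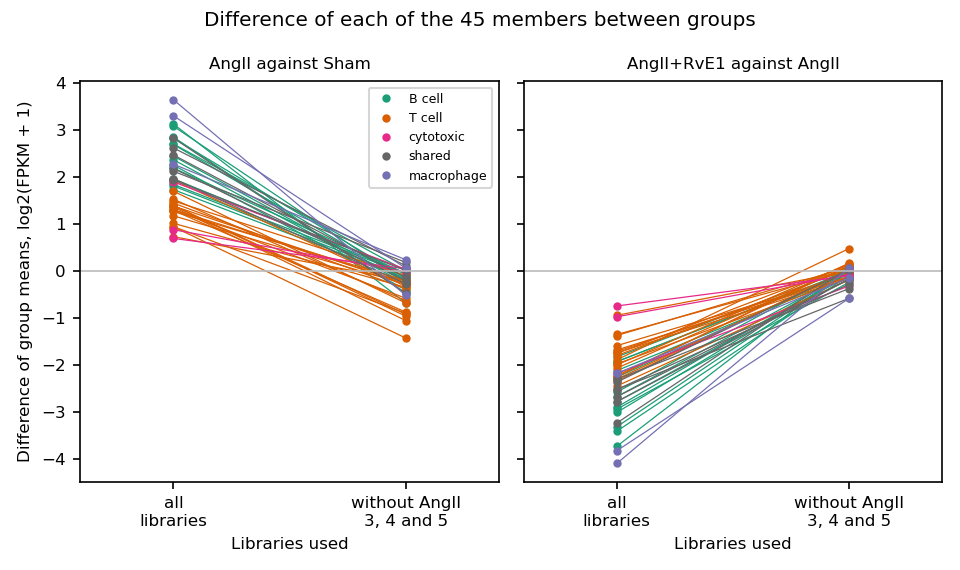
Difference of group means in log2(FPKM + 1) for each of the 45 genes, with all libraries and without AngII 3, 4 and 5, for 2 comparisons, coloured by subset. The 45 values lie between 0.69 and 3.64 in AngII against Sham with all libraries and between -1.43 and 0.23 without the 3. The 3 were the highest libraries for all 45 genes, so this fall was fixed in advance.

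The genes most like the mean of the 45 were sought by correlation. The 10 highest Pearson correlations among 11925 other genes, over 15 libraries, belonged to Acap1, H2-DMb2, Gpr132, Rasal3, Ikzf1, Sash3, Itgb7, Tbc1d10c, Hvcn1 and Gimap3, with r between 0.991 and 0.996. Ikzf1, which encodes the lymphoid factor Ikaros, was 16.4, 5.51 and 22.7 FPKM in AngII 3, 4 and 5 and at most 1.29 elsewhere. H2-DMb2, a chain of the class II peptide loading complex, was 83.8, 28.2 and 139 and at most 3.96. The 10 lowest, from -0.94 to -0.87, were Khdrbs3, Smpd1, Prdm16os, Rbpms2, Cfl2, Gstm7, Lgr6, Prelp, Rasl12 and Insyn1. Rasl12 was 25.5, 51.04 and 29.6 FPKM in AngII 3, 4 and 5 and between 57.3 and 136 elsewhere. The 45 genes themselves had a median r of 0.986, lowest for Gzma at 0.864, and 401 of the 11925 other genes were above 0.9. These correlations share the same 15 libraries, 3 of which stand apart, and are given as a description.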

How the data were processed

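RNA of 15 aorta libraries (5 Sham, 5 AngII, 5 AngII+RvE1) was analysed from 1 table of 34714 gene symbols. The values deposited by the authors are treated as FPKM: the table names no unit, values have decimals and unequal library sums, and low values are not multiples of 1 read, so read counts could not be recovered. Scaling to gene length is an assumption. The genome build is mm10 per the submitters' processing notes; aligner and quantifier: not given in the sources used here. RefSeq (GRCm38.p6) gave coordinates for 45 of 45 genes and promoters for 35.

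Genes of at least 1 FPKM in at least 5 libraries (12603) were fitted with limma 3.58.1 (R 4.3.3) on log2(FPKM + 1), with 1 mean per group, trend, two-sided tests and Benjamini-Hochberg adjustment over all genes. The added 1 shrinks differences of low genes. The procedure was tested on simulated data. The 45 genes and the other lists were chosen with earlier results of these data known. Per-library values are given for up to 6 genes of a subset with the highest group mean or widest range and, in AngII 3 to 5 with the highest other value, for the rest. Up to 4 genes of each other list are named, those called or with the widest range within AngII, together with the 10 most and 10 least correlated other genes. Some genes of lists (for example Rag1) were picked after their values were seen. Alternatives were an added value of 0.1, no filter, rescaling, fits of 2 groups, a replicate block, array weights, each library left out, and AngII 3 to 5 left out. Immunoglobulin and T cell receptor constant genes were not analysed here, and some genes that the rule names are left out of the text, though they count in the totals of their lists.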

Additional observations from a re-analysis of the deposited data

Results flagged for a closer look

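Within groups of 5 libraries, the gap of the highest or lowest library to its nearest neighbour was divided by the group's range and set against a critical value of 0.71. Of 153 groups examined 11 passed, and chance alone flags about 1 in 20 independent groups. These groups are not independent, since the genes share the same 15 libraries, and 8 of the 11 were Sham 3. The genes were also chosen on these values, so the count is a description and not repeated support. Sham 3 stood above the other Sham libraries for Cr2 (0.872), Fcer2a (0.775), Fcmr (0.740), Ms4a1 (0.776), Cd22 (0.771), Il7r (0.856), Btla (0.775) and Cd53 (0.758), that is, for B cell surface receptors, an inhibitory receptor, a tetraspanin and a single T cell gene. AngII+RvE1 2 stood above its group for Tcf7 (0.795) and Il7r (0.739), and AngII+RvE1 3 lay below its group in the mean of the shared leukocyte genes (0.817). Of the groups that passed, 0 were AngII, where 3 libraries were high together.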

How the results depend on the processing

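Counts of called genes moved with the processing, and the cause was not tested. For AngII against Sham 400 genes were called (298 higher, 102 lower). The number was 151 without the filter, 37 with only these groups fitted, 2821 with array weights and 22 without AngII 3 to 5, and 76 to 1719 with 1 library left out. For AngII+RvE1 against AngII (1074) it was 405, 4469 with array weights and 6 without AngII 3 to 5, and 98 to 2035. For AngII+RvE1 against Sham (3) it was 1 without the filter and with only these groups, 17 with array weights, 5 without AngII 3 to 5, and 1 to 8. Rescaling by the median ratio moved the median of all genes from 0.11 to 0.01 and the split to 257 higher and 247 lower in AngII against Sham, and to 799 and 465 (from 531 and 543) in AngII+RvE1 against AngII.

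Of the 25 lymphocyte genes fitted, those called in AngII against Sham numbered 17 with array weights, against 16.7% of all genes called higher. With 1 library left out they numbered 0 to 16. The 16 came without AngII 1 and again without AngII 2, against 9.16% and 10.9% of all genes called higher. In AngII+RvE1 against AngII (6) they numbered 0 without the filter, where all 45 genes were fitted, and 0 with only these groups. The shares of all genes called lower in those fits were 0.733% and 3.88%. The lymphocyte genes called numbered 25 with array weights and 0 without AngII 3 to 5, against 23.5% and 0.0476% of all genes called lower. With 1 library left out there were 0 to 24. There were 24 without AngII 1 or AngII 2, against 9.31% and 10.4% of all genes called lower. There were 0 without AngII 3, 4 or 5 (1.2%, 1.42% and 0.428%) or without AngII+RvE1 1, 3, 4 or 5 (0.651%, 1.36%, 0.524% and 0.421%). There was 1 without AngII+RvE1 2 (3.24%). There were 3 without Sham 1 (4.71%) and 2 without Sham 2, 4 or 5 (2.61%, 2.96% and 3.34%). Array weights give less weight to libraries that depart from their group. AngII 4, a lymphocyte-high library, had a weight of 6.35, and the other AngII libraries had 0.37 to 0.71. AngII+RvE1 1 had 3.84, so the AngII mean in these fits leaned mostly on AngII 4. The medians of the 25 became -0.47 and -0.0049 without AngII 3 to 5, a change fixed by leaving out the libraries highest for these genes. With 1 library left out the medians ranged over 1.39 to 2.45, -2.97 to -1.84 and -0.70 to -0.23. The range of the 45-gene mean was 2.54 in Sham and 0.55 in AngII+RvE1 with an added 0.1, and 1.85 and 0.34 over the filtered genes alone. With 1 library left out it ran from 0.73 (without Sham 3) to 1.34 for Sham, from 4.06 to 4.54 for AngII and from 0.14 to 0.20 for AngII+RvE1.

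The replicate numbers were tried as a block. Same-numbered libraries deviated with correlations between -0.41 and 0.52. The labels do not say whether the numbers pair the samples, and these correlations cannot settle it. With the block, calls numbered 109, 433 and 1 over all genes, and 0 of the 25 in AngII+RvE1 against AngII. Read depth is unknown, and levels under 1 FPKM are compressed by the added 1.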
